A study of Mus musculus with 10 samples.

Results

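Circadian clock genes were followed in mouse liver after an acetaminophen overdose. The group held 10 genes, Arntl, Clock, Npas2, Per1, Per2, Cry1, Nr1d1, Dbp, Tef and Noct, taken by gene name from the non-control spots of the arrays (Noct stands there under its older name Ccrn4l). They were read by 12 of the 39429 probes, and all 10 were among the 24001 genes tested, each by its own brightest probe.

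Treated animals were female C57BL/6 mice, 8 weeks of age, that had gone without food for 24 h and then received 1 intraperitoneal dose of 350 mg/kg acetaminophen in phosphate buffered saline. Controls were mice of the same sex, strain and age that had fasted equally and received the saline alone. Livers were taken at 3, 8, 24, 48 or 72 h, and at each time point 2 Agilent arrays each set the Cy5-labelled RNA of a treated liver against the Cy3-labelled RNA of a control liver. The hour of day of the injections and the time of refeeding are not given in the sources used here.

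The molecular clock is a feedback loop of transcription. ARNTL (also called BMAL1) pairs with CLOCK or NPAS2 and drives genes that carry E-box sequences, among them the Per and Cry genes, whose proteins return to block the pair. The nuclear receptor NR1D1 (REV-ERBα) represses Arntl, the factors DBP and TEF pass the rhythm to liver metabolism through D-box sequences, and Noct encodes nocturnin, a rhythmic phosphatase. In liver the loop is set largely by the time of feeding and by hormones.

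The upstream sequences of Tef, Dbp and Nr1d1, members with calls at 3 or more time points, are shown first, with short sites of the members that held a motif. RefSeq (GRCm38.p6) gave 14 promoters for 9 of the 10 members, all but Per2, each with 250 bases before the transcript start and 50 after it. The 300 bases were searched on both strands for the E-box CACGTG, for the D-box as TTATGTAA or TTACGTAA, and for TAGGTCA, the core of the element bound by ROR and REV-ERB receptors. No match of one motif overlapped a match of another, and capitals mark a match. The E-box stood in at least 1 promoter of 3 of these 9 members, Per1, Cry1 and Tef, against 7.15% of all 32851 promoters. TAGGTCA stood in 1, Arntl, against 2.61%, and the D-box in 0, against 1.06%. The counts are of genes, some with several promoters, whereas the shares are of single promoters. Both Tef starts held an E-box, at -127 and -138 from their start. Each line below runs 5′ to 3′ on the strand of the gene.
Tef, first start (chr15:81802423-81802672, plus strand): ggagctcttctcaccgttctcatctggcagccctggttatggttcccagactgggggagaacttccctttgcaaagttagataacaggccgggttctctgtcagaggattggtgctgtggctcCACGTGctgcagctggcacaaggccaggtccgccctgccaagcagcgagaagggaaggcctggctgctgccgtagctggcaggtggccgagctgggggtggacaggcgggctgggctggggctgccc
Tef, second start (chr15:81811164-81811413, plus strand): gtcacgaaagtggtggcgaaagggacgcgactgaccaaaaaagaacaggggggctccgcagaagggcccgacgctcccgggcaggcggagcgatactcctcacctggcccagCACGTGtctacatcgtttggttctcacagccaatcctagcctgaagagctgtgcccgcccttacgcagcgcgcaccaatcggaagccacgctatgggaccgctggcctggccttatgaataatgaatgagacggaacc
Dbp (chr7:45704997-45705246, plus strand): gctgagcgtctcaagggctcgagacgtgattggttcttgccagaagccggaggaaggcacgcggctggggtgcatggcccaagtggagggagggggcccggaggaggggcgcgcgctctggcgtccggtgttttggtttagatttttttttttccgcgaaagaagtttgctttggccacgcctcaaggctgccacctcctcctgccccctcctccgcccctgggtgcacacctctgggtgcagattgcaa
Nr1d1 (chr11:98775378-98775627, minus strand): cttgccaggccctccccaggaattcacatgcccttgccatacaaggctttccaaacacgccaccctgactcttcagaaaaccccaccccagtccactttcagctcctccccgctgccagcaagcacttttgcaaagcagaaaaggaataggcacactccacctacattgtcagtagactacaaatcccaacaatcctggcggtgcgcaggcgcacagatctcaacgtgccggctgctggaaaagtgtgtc
Per1, 30 bases around the E-box at -166 of the first start (chromosome 11): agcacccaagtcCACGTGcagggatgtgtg
Cry1, 30 bases around the E-box at -60 (chromosome 10): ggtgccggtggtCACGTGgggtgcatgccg
Arntl, 30 bases around TAGGTCA at 30 after the second start (chromosome 7): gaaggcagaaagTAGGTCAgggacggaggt
No match was found in the windows of Dbp and Nr1d1, which says only that these letters are not in them.

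Values are log2 ratios of Cy5 over Cy3, so that a positive value is higher in the treated liver, with the standard error (SE) of a limma fit over all 10 arrays, n = 2 arrays per time point. A change was called at an adjusted p under 0.05 (limma, two-sided, Benjamini-Hochberg over all genes). Levels are log2 intensities of 1 channel, and they are compared only within a probe. They were taken after both channels of an array had been scaled together, so a control level also depends on the treated sample of its array. Where livers are said not to overlap, 2 livers stand against 2. The share of all genes without overlap was not computed. Each time point had 1 array on each of 2 scan days, so the value of each array is also the value within its scan day, and values are given in that order. Each array held 1 treated and 1 control mouse by the numbers in the labels. The p-values rest on the spread between the 2 arrays of a time point, pooled over all time points. A member therefore has the same SE at every time point, and the number of arrays limits the precision. No array had the dyes swapped, and at a single time point the treatment and a bias of a probe towards 1 dye cannot be told apart, while a bias common to all arrays cancels in differences between time points. The log2 ratios of the 2 arrays of a time point had a correlation across genes of 0.68 (3 h), 0.80 (8 h), 0.83 (24 h), 0.86 (48 h) and 0.24 (72 h). In whole liver, fewer cells of a type and less RNA per cell cannot be told apart.

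Of the 10 clock genes, 3 were called 3 h after the dose (5.35% of all genes tested), 6 after 8 h (15.7%), 5 after 24 h (19.7%), 6 after 48 h (33.3%) and 0 after 72 h (0.0167%). By direction, 1 rose (2.44% of all genes) and 2 fell (2.91%) at 3 h, 2 rose (7.32%) and 4 fell (8.4%) at 8 h, 0 rose (7.67%) and 5 fell (12.1%) at 24 h, and 2 rose (18.9%) and 4 fell (14.3%) at 48 h. At 72 h 0 rose (0.00833%) and 0 fell (0.00833%). From the earliest to the latest time point the median log2 ratio of the members was -0.24, -0.13, -0.50, -0.33 and 0.11. The median of all genes lay between -0.01 and 0.00 at every time point. Per2, Nr1d1, Dbp, Tef and Noct carried 17 of the 20 calls, Arntl and Clock the other 3, and Npas2, Per1 and Cry1 none.

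**Figure D1:**
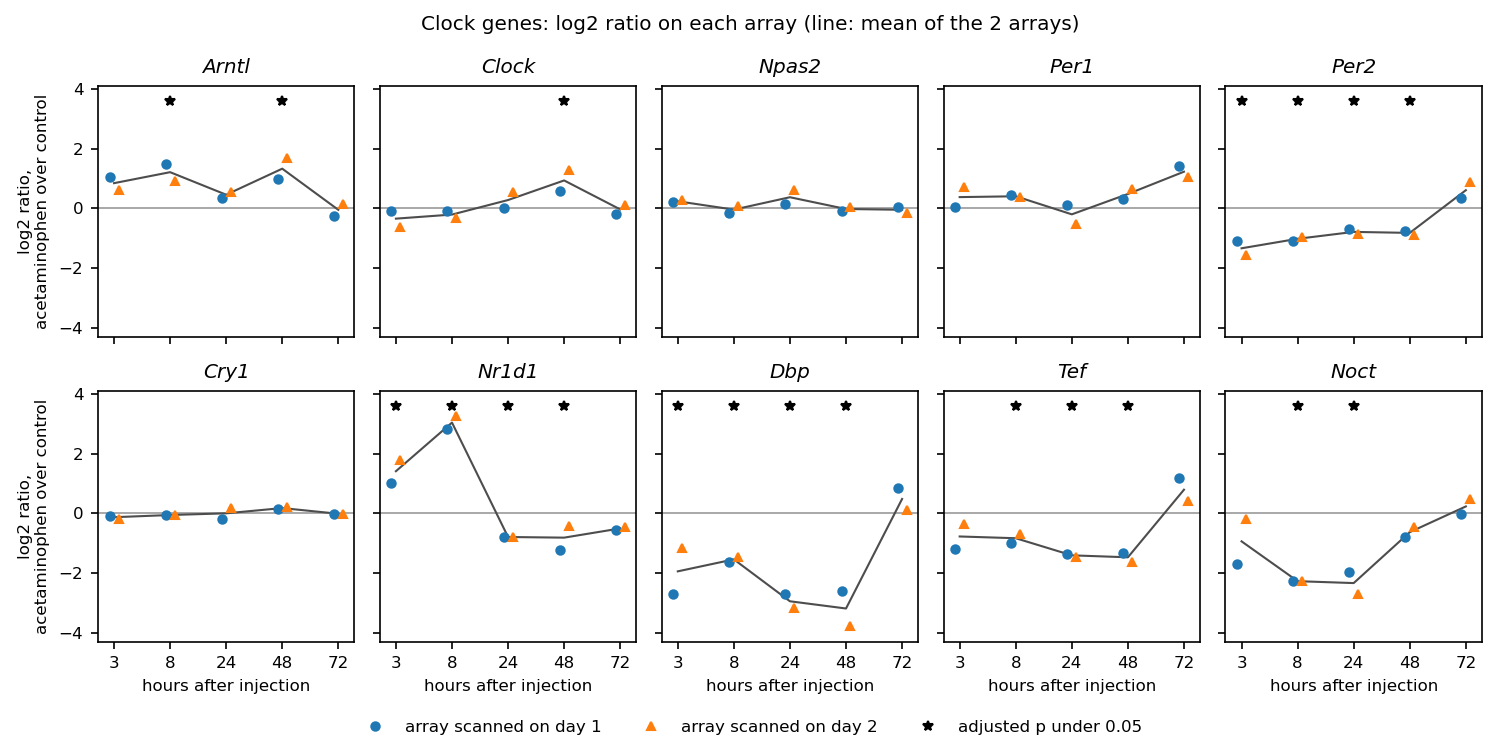
Log2 ratio of acetaminophen over control (vertical axis) against hours after injection for each of the 10 clock genes. Circles are the arrays of scan day 1, triangles those of scan day 2, the line joins their means and a star marks an adjusted p under 0.05. Nr1d1 stood at 3.04 at 8 h and -0.80 at 24 h, and Dbp was at its lowest, -3.19, at 48 h.

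Arntl, the partner of CLOCK, was higher in treated livers at 8 and 48 h. Its probe lies at chromosome 7, 120457261 to 120457320 (mm9, as for every probe position here; the exon or UTR holding each probe was not analysed here). At 8 h its level was 8.20 and 7.74 in treated livers, against 6.71 and 6.81 in controls. At 48 h it was 7.32 and 7.93 in treated livers, against 6.35 and 6.24 in controls. Treated and control livers did not overlap at either time. Arntl rose by 1.21 ± 0.20 at 8 h (limma, adjusted p = 0.0066), a 2.32-fold difference, and by 1.33 ± 0.20 at 48 h (adjusted p = 0.00161), a 2.51-fold difference. The log2 ratio at 3 h was 0.84 ± 0.20 and did not pass (adjusted p = 0.0547), nor did 0.46 at 24 h or -0.05 at 72 h. With the software's own ratio Arntl stood at 1.85 at 8 h and at 2.60 at 48 h. Without the 8 h array of scan day 1 the 8 h value was 0.93 (adjusted p = 0.136).

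Clock was higher in treated livers at 48 h. Its probe is at chromosome 5, 76641377 to 76641436. Its 48 h level was 7.73 and 8.37 in treated livers, against 7.16 and 7.07 in controls, with no overlap. The log2 ratio was 0.93 ± 0.21 (adjusted p = 0.00896), a 1.91-fold difference, and the call rested on the array of scan day 2, without which the value was 0.57 (adjusted p = 0.159). The log2 ratio of the other time points lay between -0.35, at 3 h, and 0.28, at 24 h, and did not pass. The 48 h ratio exceeded the 3 h ratio by 1.28 ± 0.29 (adjusted p = 0.0137, a difference called in 26.8% of all genes).

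Npas2, the alternative partner of ARNTL (chromosome 1, 39418941 to 39419000), was dim, well above background in 5 of 10 treated and 9 of 10 control livers. Its log2 ratio on single arrays lay between -0.15 and 0.62, and it was not called at any time point.

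Per2, a repressor of the loop, was lower in treated livers from 3 to 48 h. Its probe lies at chromosome 1, 93313046 to 93313105. At 3 h its level was 7.02 and 6.22 in treated livers, against 8.12 and 7.80 in controls. At 8 h it was 6.97 and 6.77 in treated livers, against 8.06 and 7.71 in controls. At 24 h it was 6.89 and 6.32 in treated livers, against 7.60 and 7.19 in controls. The groups did not overlap at these time points, and the treated liver of scan day 2 was the lower of the treated pair at each. At 48 h the level was 6.60 and 6.07 in treated livers, against 7.35 and 6.96 in controls. The order turned at 72 h, with 6.82 and 7.35 in treated livers, against 6.49 and 6.46 in controls. Per2 fell by 1.34 ± 0.15 on the log2 scale at 3 h (limma, adjusted p = 0.0032), a 2.53-fold difference, and by 1.02 ± 0.15 at 8 h (adjusted p = 0.0039). It fell by 0.79 ± 0.15 at 24 h (adjusted p = 0.00732) and by 0.82 ± 0.15 at 48 h (adjusted p = 0.004). The treated liver of scan day 1 was not well above background at 3 h. With the scanner software's own ratio, the values of Per2 were -3.35, -1.65, -1.67 and -1.91 from 3 to 48 h and were called at each. The 72 h value, 0.61 ± 0.15, did not pass (adjusted p = 0.193). The 72 h ratio exceeded the 48 h ratio by 1.43 ± 0.22 (adjusted p = 0.0031, a difference called in 22.3% of all genes). The fall at 3 h was called whichever array was left out, whereas those at 8, 24 and 48 h each lost the call without 1 array of their time point. These values were -0.95 (adjusted p = 0.0797) without scan day 1 at 8 h, -0.87 (adjusted p = 0.0666) without scan day 1 and -0.71 (adjusted p = 0.0882) without scan day 2 at 24 h, and -0.75 (adjusted p = 0.0592) without scan day 2 at 48 h.

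Per1, the paralogue of Per2, was not called at any time point. Its brighter probe lies at chromosome 11, 68923364 to 68923423. At 72 h its level was 10.72 and 11.07 in treated livers, against 9.31 and 10.03 in controls, with no overlap. The log2 ratio was 1.23 ± 0.19, with an unadjusted p of 0.000185 that did not pass over all genes (limma, adjusted p = 0.118). At the earlier times it lay between -0.20, at 24 h, and 0.48, at 48 h, and did not pass. The 72 h ratio exceeded the 24 h ratio by 1.43 ± 0.27 (adjusted p = 0.0137, a difference called in 9.77% of all genes). A dimmer Per1 probe, at 68919895 to 68919954, was well above background in 6 of 10 treated and 10 of 10 control livers and gave 0.04 at 72 h.

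Cry1, the partner of the PER proteins (chromosome 10, 84594731 to 84594790), was not well above background in any of the 10 treated livers and was so in 3 of 10 controls. Its log2 ratio on single arrays lay between -0.19 and 0.22, and these values are close to the background of the arrays.

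Nr1d1, the repressor of Arntl, was higher in treated livers at 3 and 8 h and lower at 24 and 48 h. Its probe lies at chromosome 11, 98630526 to 98631028, minus strand. At 3 h its level was 8.72 and 9.53 in treated livers, against 7.70 and 7.73 in controls. At 8 h it was 10.42 and 10.79 in treated livers, against 7.60 and 7.52 in controls. At 24 h it was 7.33 and 6.74 in treated livers, against 8.13 and 7.52 in controls. Treated livers were thus above both controls at 3 and 8 h and below both at 24 h. At 48 h the level was 6.78 and 7.32 in treated livers, against 8.00 and 7.73 in controls, and at 72 h 7.43 and 7.15, against 7.99 and 7.61. Control livers stayed between 7.52 and 8.13 throughout. Nr1d1 rose by 1.41 ± 0.22 at 3 h (limma, adjusted p = 0.0104), a 2.66-fold difference, and by 3.04 ± 0.22 at 8 h (adjusted p = 0.000232), an 8.22-fold difference. It fell by 0.80 ± 0.22 at 24 h (adjusted p = 0.0387) and by 0.82 ± 0.22 at 48 h (adjusted p = 0.023), and at 72 h the value was -0.51 (adjusted p = 0.447). The 24 h ratio was lower than the 8 h ratio by 14.3-fold (adjusted p = 0.000483, a difference called in 11.7% of all genes). The 8 h rise was called whichever array was left out. Without scan day 2 the 3 h value was 1.02 (adjusted p = 0.12), and without scan day 1 the 48 h value was -0.41 (adjusted p = 0.306). The 24 h call was lost without either array of 24 h, at -0.78 (adjusted p = 0.263) and -0.81 (adjusted p = 0.186), and without either array of 72 h, at -0.80 (adjusted p = 0.0552).

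Dbp, a D-box activator and a direct E-box target of the loop, was lower in treated livers from 3 to 48 h. Its brighter probe lies at chromosome 7, 52965322 to 52965381. At 3 h its level was 9.92 and 10.35 in treated livers, against 12.63 and 11.53 in controls. At 8 h it was 10.11 and 9.70 in treated livers, against 11.75 and 11.15 in controls. At 24 h it was 9.95 and 9.14 in treated livers, against 12.67 and 12.31 in controls. All treated livers lay below all controls at these times. The lowest treated liver was at 48 h, where the level was 10.46 and 8.74 in treated livers, against 13.07 and 12.51 in controls. At 72 h it was 11.35 and 11.25 in treated livers, against 10.49 and 11.15 in controls. Dbp fell by 1.95 ± 0.38 on the log2 scale at 3 h (limma, adjusted p = 0.0247) and by 1.54 ± 0.38 at 8 h (adjusted p = 0.0285). The fall was 7.72-fold at 24 h (log2 ratio -2.95 ± 0.38, adjusted p = 0.000989) and 9.13-fold at 48 h (-3.19 ± 0.38, adjusted p = 0.000479). The 72 h value, 0.48, did not pass (adjusted p = 0.713), and it exceeded the 48 h value by 3.67 ± 0.54 (adjusted p = 0.00282). A second Dbp probe, at 52965461 to 52965520, read -2.11, -2.16, -3.32, -3.41 and 0.60 over the 5 time points. The falls at 24 and 48 h were called whichever array was left out. At 3 h the value without scan day 1 was -1.18 (adjusted p = 0.286), and at 8 h the values were -1.45 (adjusted p = 0.265) without scan day 1 and -1.64 (adjusted p = 0.148) without scan day 2.

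Tef, a relative of Dbp that binds the same sequences, was lower in treated livers at 8, 24 and 48 h. Its probe lies at chromosome 15, 81657221 to 81657280. At 24 h its level was 12.55 and 12.12 in treated livers, against 13.90 and 13.59 in controls. At 48 h it was 12.21 and 12.19 in treated livers, against 13.53 and 13.82 in controls. The groups stood apart at both times and had changed places at 72 h, with 13.39 and 13.38 in treated livers, against 12.20 and 12.99 in controls. Tef fell by 1.41 ± 0.22 at 24 h (adjusted p = 0.00287), a 2.66-fold difference, and by 1.48 ± 0.22 at 48 h (adjusted p = 0.0015). At 8 h the level was 12.27 and 12.45 in treated livers, against 13.26 and 13.13 in controls, a fall of 1.79-fold (log2 ratio -0.84 ± 0.22, adjusted p = 0.0394). That 8 h call was lost in 6 of 10 fits that left out 1 array, with values of -0.69 without scan day 1 at 8 h (adjusted p = 0.381) and -0.99 without scan day 2 (adjusted p = 0.133). It was also lost in 6 of 11 other processing settings, among them scan day as a block (adjusted p = 0.052), the software's own ratio and the authors' deposited table (adjusted p = 0.0548) and no filter on dim probes (adjusted p = 0.0523). The values at 3 h, -0.78 (adjusted p = 0.0909), and at 72 h, 0.79 (adjusted p = 0.246), did not pass. The 72 h ratio exceeded the 48 h ratio by 2.26 ± 0.32 (adjusted p = 0.00237).

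Noct, which encodes nocturnin, was lower in treated livers at 8 and 24 h. Its probe lies at chromosome 3, 51055429 to 51055488. At 8 h its level was 9.39 and 9.65 in treated livers, against 11.67 and 11.92 in controls. At 24 h it was 9.46 and 8.50 in treated livers, against 11.44 and 11.20 in controls. No treated liver reached a control at these times. Noct fell by 2.28 ± 0.32 at 8 h (adjusted p = 0.00319), a 4.84-fold difference, and by 2.34 ± 0.32 at 24 h (adjusted p = 0.00142), a 5.06-fold difference. At 3 h the 2 arrays differed, at -1.70 and -0.18, and the mean of -0.94 did not pass (adjusted p = 0.142), nor did -0.63 at 48 h or 0.23 at 72 h. The 24 h fall was called whichever array was left out, and the 8 h value without scan day 1 was -2.27 (adjusted p = 0.0584).

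The level of the clock genes by hour was then compared in each channel. In control livers 2 of 10 members, Per2 and Noct, differed over the 5 time points (limma F test, 2.26% of all genes). Noct in controls stood at 11.52 and 11.09 (3 h), 11.67 and 11.92 (8 h), 11.44 and 11.20 (24 h), 9.22 and 9.37 (48 h), and 8.53 and 9.22 (72 h), with an adjusted p of 0.00684. Its 48 and 72 h controls all lay below its earlier ones, and the 72 h mean was 5.44-fold below the 24 h mean (adjusted p = 0.00607, a difference called in 0.929% of all genes). The times 24, 48 and 72 h are whole days after injection, and whether all injections were made at the same hour is not given. Per2 in controls had its highest mean, 7.96, at 3 h and its lowest, 6.47, at 72 h (adjusted p = 0.0436), and this call was lost whichever of the 10 arrays was left out, with an adjusted p between 0.0514 and 0.128. Dbp, Tef and Per1 also had their lowest control mean at 72 h, at 10.82, 12.59 and 9.67, but did not pass (adjusted p = 0.107, 0.14 and 0.0728).

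In treated livers 3 of 10 members, Arntl, Nr1d1 and Tef, differed over the time points (22.1% of all genes). Nr1d1 had its highest treated mean, 10.60, at 8 h and its lowest, 7.03, at 24 h (adjusted p = 0.000488). Tef in treated livers stood at 13.38 at 72 h and between 12.20 and 12.36 before (adjusted p = 0.0102). Without either 72 h array the Tef call was lost, at adjusted p = 0.0652 and 0.0601. The treated mean of Arntl was highest at 8 h, 7.97, and lowest at 72 h, 6.78 (adjusted p = 0.037). The Arntl call was lost in 8 of 10 fits that left out 1 array, with adjusted p of up to 0.106. The log2 ratio itself differed between time points in 8 of 10 members, all but Npas2 and Cry1 (29.5% of all genes). With scan day as a block 6 members passed, Clock (adjusted p = 0.0559) and Per1 (adjusted p = 0.0508) being lost. Over the 12 other processing settings, scan day among them, Per1 was lost in 7, Clock in 5 and Arntl in 4. Without 1 array Clock was lost in 9 of 10 fits (adjusted p of up to 0.18), Per1 in 7 (up to 0.132) and Arntl in 4 (up to 0.1).

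**Figure D2:**
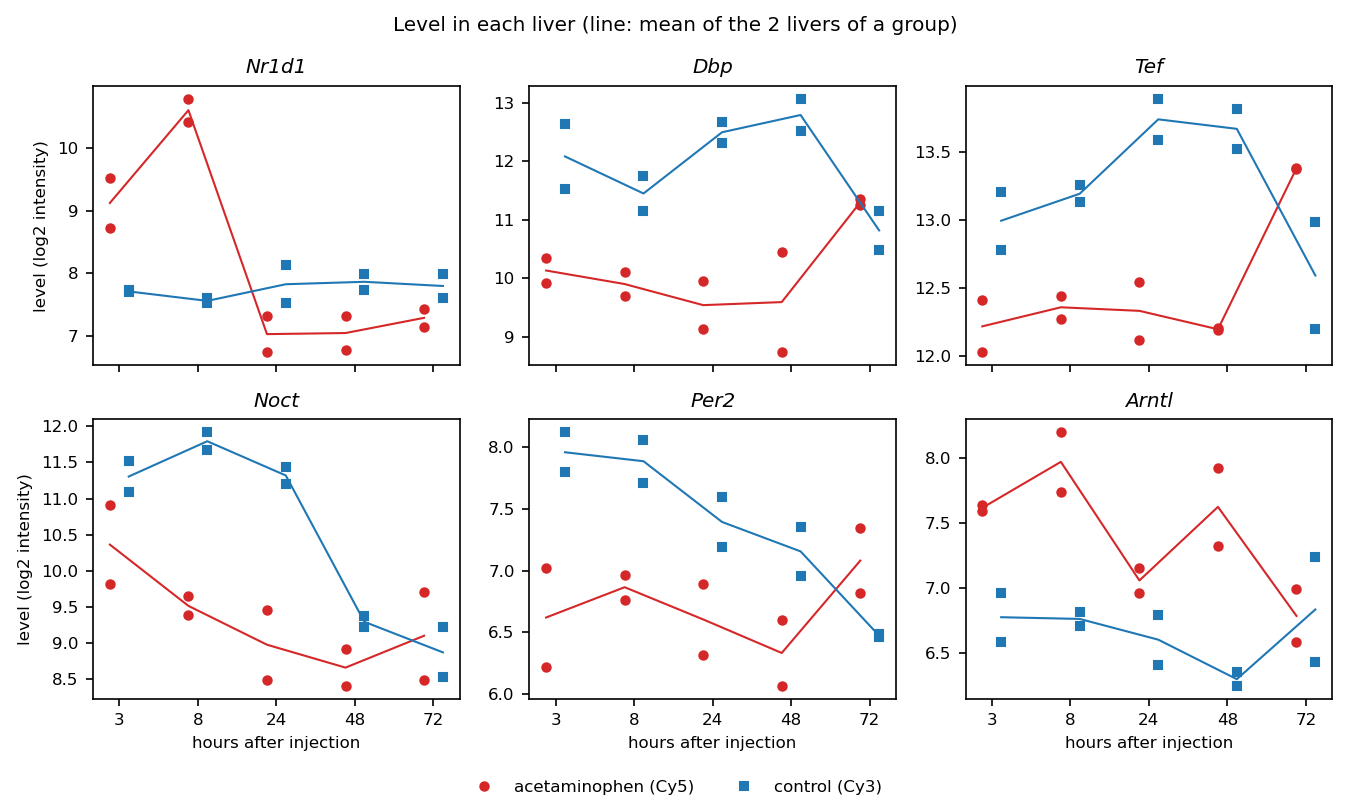
Level in each liver (log2 intensity, vertical axis) against hours after injection for 6 clock genes. Red circles are treated livers, blue squares control livers, and lines join the means of the 2 livers of a group. Control Noct fell to 8.87 at 72 h, against 11.32 at 24 h, and Nr1d1 in treated livers peaked at 8 h while its controls stayed between 7.52 and 8.13.

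The 20 calls differed in how far they held under other settings. The values above rest on a background step in which a few very high local backgrounds were set to the median of their array, a step chosen after the data were seen, and 13 of the 20 calls held without it. The 7 others were Arntl (1.04, adjusted p = 0.0557), Per2 (-0.83, adjusted p = 0.0791) and Tef (-0.85, adjusted p = 0.0506) at 8 h, Per2 (-0.50, adjusted p = 0.347) and Nr1d1 (-0.49, adjusted p = 0.241) at 24 h, and Per2 (-0.69, adjusted p = 0.0824) and Nr1d1 (-0.64, adjusted p = 0.0566) at 48 h. With no background correction at all the same members were called as in the values above at each time point. All 20 values kept their sign under 11 other processing settings at 8 h, 12 at the other times, and the 10 fits without 1 array. Of the calls, 6 held under all of them, namely Arntl at 48 h, Per2 at 3 h, Nr1d1 at 8 h, Dbp at 24 and 48 h and Noct at 24 h. Centring each array on its median in place of loess ended 11 of the 20 calls, left 29, 127, 852 and 1741 of all genes called from 3 to 48 h, and moved the median of all genes to -0.24 at 3 h and -0.12 at 24 h.

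**Figure D3:**
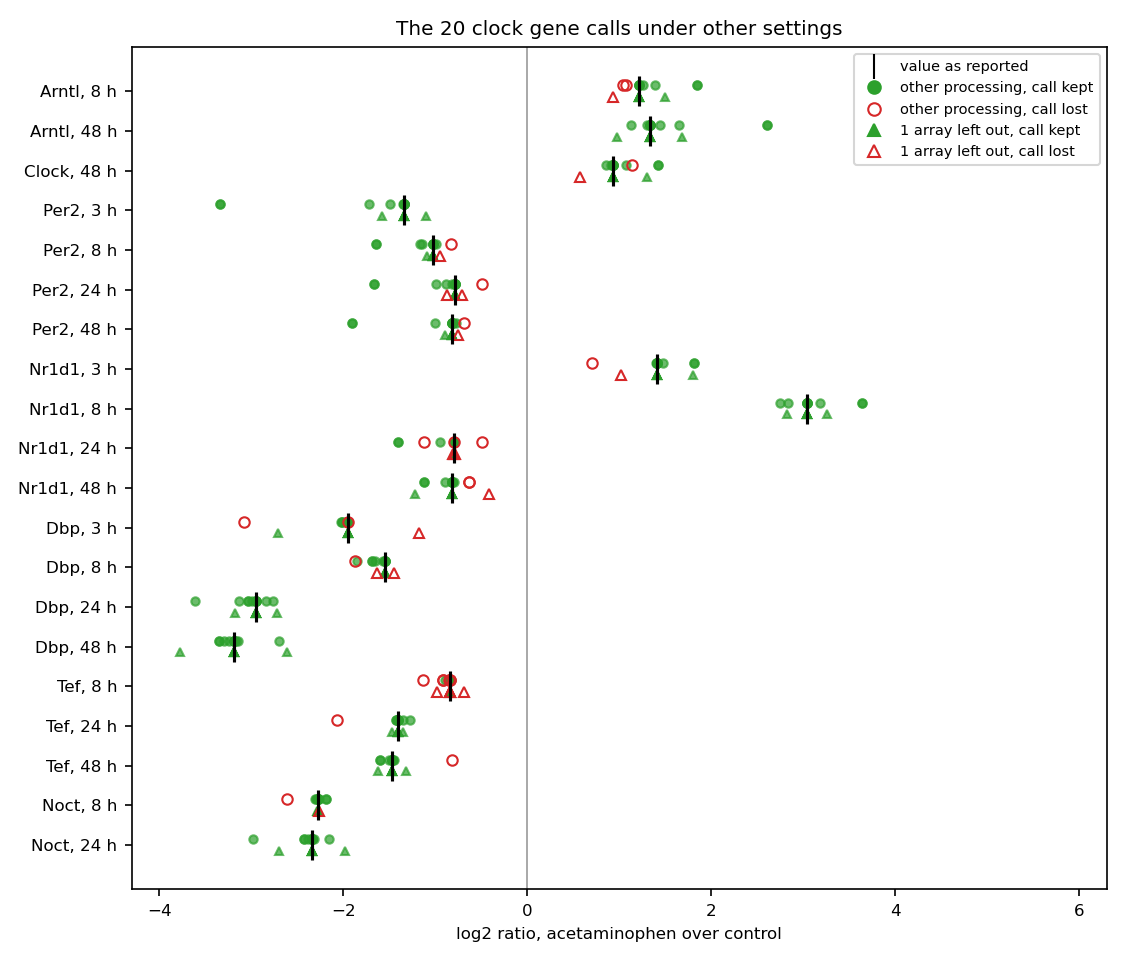
Log2 ratio of acetaminophen over control (horizontal axis) for each of the 20 clock gene calls, by gene and time point. Black ticks are the reported values, circles other processing settings and triangles fits without 1 array, filled green where the call was kept and open red where it was lost. All points stay on the side of 0 of the reported value.

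Markers of other cell types moved at some of these times. Hepatocyte markers had 0 of 10 genes fallen at 3 h and at 8 h, when 2 rose, 6 fallen at 24 h and 8 at 48 h, and 0 called at 72 h. Their summed level was 455897 to 554035 in treated livers at 24 h, against 776524 to 822626 in controls, and 368315 to 551514 at 48 h, against 798895 to 860701. Alb, the defining hepatocyte gene, stood at -0.69 at 24 h and at -0.11 at 48 h. Of a list of 6 neutrophil markers, 4 were tested (Ly6g and Ngp were not), and all 4 rose at both 24 and 48 h. Retnlg and Cxcr2 among them were dim, well above background in 6 and 4 of 10 treated livers. The summed level of the 4 was 6608 to 17943 in treated livers at 24 h, against 944 to 2170 in controls. At 48 h it was 5430 to 6743, against 521 to 596. Of 5 monocyte and macrophage markers 3 rose at 48 h, of 6 Kupffer cell markers 1, and of 5 stellate cell markers 2 fell. Of 5 endothelial markers Lyve1 rose at 8, 24 and 48 h (0.97, 1.10 and 1.82), and of 3 cholangiocyte markers Sox9 rose at the same times (0.63, 0.58 and 1.09). The other tested markers of these lists were not called, and the monocyte marker Ly6c2 and the cholangiocyte marker Epcam were not tested. The endothelial median was 0.01, 0.05 and -0.13 at these times, with a lowest value of -1.01 at 48 h. The summed endothelial level at 48 h was 3738 to 4601 in treated livers, against 5002 to 6309 in controls. The cholangiocyte median was -0.09, -0.20 and 0.44. Of all genes, 7.32% rose and 8.4% fell at 8 h. The shares were 7.67% and 12.1% at 24 h, and 18.9% and 14.3% at 48 h. The part of these cell type markers in the 24 and 48 h values of the clock genes was not tested. At 3 h 0 genes of any of the cell type lists were called, and the summed hepatocyte level was 777698 to 806354 in treated livers, against 538706 to 600833 in controls. At 8 h it was 799398 to 813999 in treated livers, against 580518 to 593615 in controls, and the part of these differences in the 3 and 8 h values was not tested.

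Other genes of the clock and its liver output were read from a list of 28, of which 27 were tested (Cyp2a5 was not). Of these, 2 rose and 4 fell after 3 h, and 6 rose and 7 fell after 8 h. After 24 h 1 rose and 9 fell, after 48 h 2 rose and 9 fell, and after 72 h 0 were called. Over all genes, 2.44% rose and 2.91% fell at 3 h, and 7.32% rose and 8.4% fell at 8 h. These shares were 7.67% and 12.1% at 24 h, and 18.9% and 14.3% at 48 h. At 72 h 10 of the 27 had an unadjusted p under 0.05 (8 higher and 2 lower in treated livers). Of all 24001 genes 2710 had such a p, 1373 higher and 1337 lower. The median log2 ratio of the 27 genes was 0.10, 0.05, -0.13, -0.17 and 0.20 over the 5 time points. Of the 10 further core genes 5 fell at 24 h and 0 rose.

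Nfil3, which encodes a repressor that competes with DBP and TEF for the D-box, was higher in treated livers. At 3 h its level was 10.42 and 10.22 in treated livers, against 8.11 and 8.53 in controls, and at 8 h 11.29 and 11.60, against 8.64 and 9.42. The groups were apart at both times. Its log2 ratio was 2.00 ± 0.17 at 3 h (adjusted p = 0.000958), 2.42 ± 0.17 at 8 h (adjusted p = 0.000189) and 0.71 ± 0.17 at 48 h (adjusted p = 0.0124). The 48 h call was lost without scan day 2, at 0.59 (adjusted p = 0.149), and with the authors' deposited table, at 0.69 (adjusted p = 0.0903). With median centring the 3 h value was 1.06 (adjusted p = 0.113) and the 48 h value 1.06 (adjusted p = 0.0675).

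Rora, a nuclear receptor that competes with NR1D1, was higher in treated livers at 8 h. Its level was 10.23 and 9.79 in treated livers, against 8.91 and 8.70 in controls, with no overlap. Rora rose by 1.21 ± 0.24 (adjusted p = 0.0127), a call lost without scan day 1, at 1.09 (adjusted p = 0.18), and without scan day 2, at 1.32 (adjusted p = 0.0784). Arntl2, a paralogue of Arntl, had a log2 ratio of 0.47 ± 0.11 at 3 h (adjusted p = 0.0481). That call was lost in 8 of 10 fits that left out 1 array, with a value between 0.38 and 0.56 (adjusted p of up to 0.408), and the value was -0.03 with median centring.

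Usp2, a deubiquitinase of clock proteins, fell at 4 time points. Its level was 8.43 and 8.78 in treated livers at 3 h, against 10.23 and 9.56 in controls. At 24 h it was 7.78 and 7.29 in treated livers, against 10.11 and 10.19 in controls. The groups did not overlap. The log2 ratio was -1.29 ± 0.25 at 3 h (adjusted p = 0.0255), -1.87 ± 0.25 at 8 h (adjusted p = 0.00262), -2.61 ± 0.25 at 24 h (adjusted p = 0.00026) and -1.67 ± 0.25 at 48 h (adjusted p = 0.0015). At 72 h it was 2.15 ± 0.25 and did not pass (adjusted p = 0.085). Without scan day 1 it was -0.78 at 3 h (adjusted p = 0.299) and -1.49 at 8 h (adjusted p = 0.0618).

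Among the liver outputs of the clock, Cyp7a1, Gys2 and Alas1 fell and Lonrf3 rose at more than 1 time point. Cyp7a1, which sets the pace of bile acid production, stood at -3.66 ± 0.15 at 3 h (adjusted p = 3.76e-05), -2.78 ± 0.15 at 8 h (adjusted p = 8.66e-05), -3.22 ± 0.15 at 24 h (adjusted p = 1.38e-05) and -2.31 ± 0.15 at 48 h (adjusted p = 4.8e-05). A treated liver was not well above background for Cyp7a1 at 24 h (scan day 1) and at 48 h (scan day 2), and other processing settings gave -5.55 to -2.34 at 24 h and -4.45 to -2.03 at 48 h, all called. Gys2, the liver glycogen synthase, fell by 2.69 ± 0.21 at 24 h (adjusted p = 9.61e-05) and by 2.10 ± 0.21 at 48 h (adjusted p = 0.000212). Alas1, which begins haem synthesis, fell by 1.70 ± 0.23 at 3 h (adjusted p = 0.00521), and without scan day 1 the value was -1.22 (adjusted p = 0.0586). Lonrf3 rose by 2.01 ± 0.14 at 8 h (adjusted p = 0.000211), 1.12 ± 0.14 at 24 h (adjusted p = 0.000953) and 0.87 ± 0.14 at 48 h (adjusted p = 0.00223). With every local background as deposited the call of Lonrf3 at 24 h was lost (0.72, adjusted p = 0.101), as were those of Usp2 at 3 h (-1.29, adjusted p = 0.179), 8 h (-1.85, adjusted p = 0.0565) and 48 h (-1.52, adjusted p = 0.0591). Median centring ended the calls of Lonrf3 at 8 h (adjusted p = 0.0752), 24 h (adjusted p = 0.215) and 48 h (adjusted p = 0.0715), and those of Usp2 at 3 h (adjusted p = 0.101), 8 h (adjusted p = 0.124) and 48 h (adjusted p = 0.115). It also ended those of Gys2 at 48 h (-1.53, adjusted p = 0.175), Alas1 at 3 h (-2.91, adjusted p = 0.106) and Rora at 8 h (0.89, adjusted p = 0.301).

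**Figure D4:**
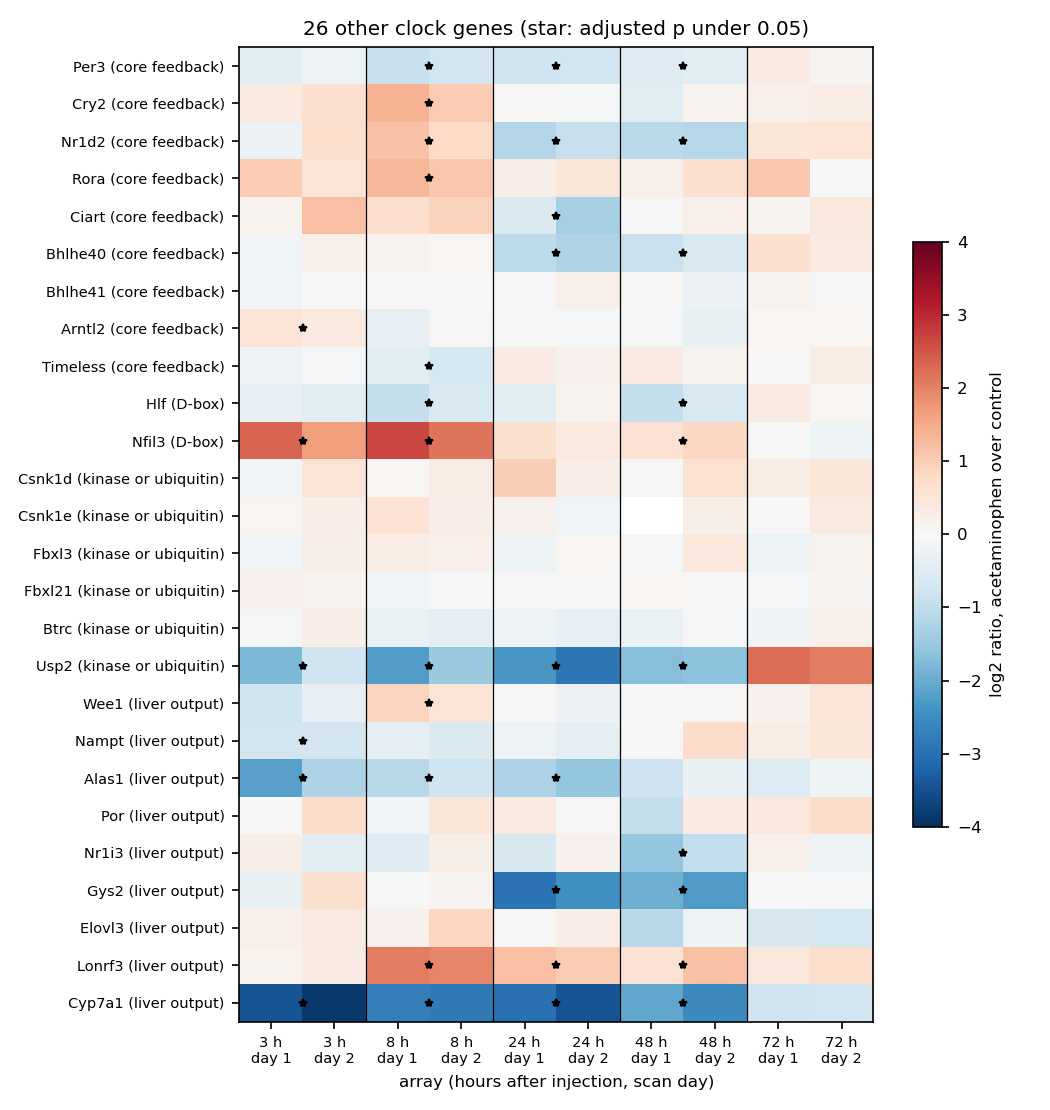
Log2 ratio of acetaminophen over control (colour, from -4 in blue to 4 in red) for 26 other clock genes (rows, with their group) on each of the 10 arrays (columns, by hours after injection and scan day). Stars mark an adjusted p under 0.05 and the blank cell of Csnk1e is a missing value. Cyp7a1 was blue at all times, and Nfil3 was reddest at 3 and 8 h.

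Of the 27 genes, 5 differed over time in control livers (2.26% of all genes). By smallest p these were led by Cyp7a1, Ciart, Usp2 and Lonrf3. Cyp7a1 in controls was 11.60 and 11.58 at 3 h and 8.20 and 8.06 at 72 h (adjusted p = 0.00609). Ciart, a repressor of the loop, was 7.69 and 7.80 at 24 h and 5.85 and 5.90 at 72 h (adjusted p = 0.0128). The Ciart control of scan day 1 at 72 h was not well above background. Usp2 had its highest control mean, 10.89, at 8 h and its lowest, 7.77, at 72 h (adjusted p = 0.013). Lonrf3 was highest at 8 h, 8.54, and lowest at 48 h, 7.13 (adjusted p = 0.0238). The control mean of 3 of these 4 genes was thus lowest at 72 h, as was that of Per2 and of Noct. In Cyp7a1 and Noct a 72 h control liver lay above a 48 h control liver. The share of all genes with their lowest control mean at 72 h was not computed. The F tests of these 4 genes were not repeated under other settings.

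Likeness over the 10 control livers was read among 1553 genes with a symbol and an SD of at least 0.5 log2, members left out. Among these, the genes whose level followed Arntl most closely were Avpr1a (Pearson r 0.81), Ppp1r3c (0.77), Srms (0.74) and Akr7a5 (0.74). For Dbp they were Lcn2 (0.73), Apoa4 (0.71), Lamb3 (0.71) and Tnfrsf23 (0.70). The member Tef, left out of this search, had a higher r with Dbp, 0.84. These values describe 10 livers that share arrays, slides and time points with one another. The 4 genes named for each member are the highest of 1553, and the r that noise alone would give was not computed. In controls neither Arntl nor Dbp differed over time (limma F test, adjusted p = 0.695 and 0.107).

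At 72 h 0 of the 10 members were called by limma, and 3 had an unadjusted p under 0.05, Per1, Per2 and Tef, all higher in treated livers. Of all 24001 genes 2710 had such a p, 1373 higher and 1337 lower in treated livers. The count of members called at 72 h was 0 under each of the other processing settings, which called 0 to 11 of all genes. With so few genes called, a count of 0 says little about the members.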

How the data were processed

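RNA of treated (Cy5) and control (Cy3) mouse livers was read on 10 Agilent 2-colour arrays. Spot and local background intensities, processed signal intensities, flags and log10 ratios were deposited as the output of Agilent Feature Extraction 10.7.3.1, per the file headers. The authors' deposited value table, whose scale the sources used here do not give, held a score that equalled 1.44 times the log10 ratio (r = 1, median 0 on each array, 7.25% to 25.5% exact zeros) and was tried as an alternative.

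Background correction used normexp (offset 50) on the mean spot intensities, after local backgrounds above 3 times the median of their array and channel were set to that median. This step was chosen after 2 to 39 such spots per affected channel had been seen to widen the normexp fit on 4 arrays. None of these spots was of a clock probe. Ratios were scaled by loess within arrays, and levels by Aquantile between arrays. Control spots (1377) and 2718 outlier spots were left out. Probes well above background in 1 channel on both arrays of a time point were kept (29611), and a gene was read by its brightest kept probe. Probes were named by accession (26581), symbol (2597), synonym (492) or the file's own name (9759).

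Ratios and levels were fitted over all genes with limma 3.58.1 in R 4.3.3 (lmFit, eBayes, 5 residual degrees of freedom), with Benjamini-Hochberg adjustment, and F tests compared time points. Alternatives were no background correction, backgrounds as deposited, median centring, the software's own ratio, other filters, the mean of all probes, an intensity trend, scan day, slide or mouse number as a block, other scalings of the channels, and leaving out each array. Slide as a block was also chosen after the data were seen. The fit was tested on simulated noise, drawn independently for each array, with changes added to 200 genes at 48 h. The 48 h call recovered 81% of log2 changes of size 1 and 99% of size 2. The F test recovered 34% and 78%, so a member that did not pass it may still differ over time. Promoters were searched and figures drawn in Python 3.11.15 with pandas 2.3.3 and matplotlib 3.10.9. The 10 members were named. Among the other clock genes, up to 3 called rises and 3 called falls of largest size per time point were named. So were the genes of the 4 smallest control F tests, and the 4 genes outside the members most like Arntl and Dbp. A gene that this rule names is counted in the lists and is not reported here. The members and lists were chosen with earlier results of these data known.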

Additional observations from a re-analysis of the deposited data

Results flagged for a closer look

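The log2 ratio of acetaminophen over control differed between time points in 8 of 10 clock genes by the limma F test, as it did in 29.5% of all genes. The adjusted p was 0.000532 for Nr1d1, 0.00264 for Per2, 0.0056 for Tef, 0.00717 for Dbp, 0.012 for Noct, 0.0299 for Arntl, 0.0353 for Per1 and 0.048 for Clock. With every local background as deposited 4 of the members differed, and with scan day as a block 6 did, Clock (adjusted p = 0.0559) and Per1 (adjusted p = 0.0508) being lost. Over the 12 other processing settings the call was lost in 7 for Per1, in 5 for Clock and in 4 for Arntl. It was lost in 1 for each of Nr1d1, Per2, Tef, Dbp and Noct.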

How the results depend on the processing

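The count of clock genes called was 1 (3 h), 2 (8 h), 3 (24 h) and 3 (48 h) with median centring, and 3 (8 h) and 3 (24 h) with every local background as deposited. All genes called numbered 29, 127, 852 and 1741 with median centring over these time points, against 1285, 3773, 4735 and 7983 as reported, and 3102 (8 h) and 2613 (24 h) with backgrounds as deposited. From 3 to 48 h, leaving out 1 array moved the counts of all genes called as well as those of the members. Such a fit leaves 1 array at its time point, so these counts are not given. Members whose ratio differed between time points numbered 1 with median centring, 4 with backgrounds as deposited and 5 to 7 without 1 array, with 144, 5597 and 5170 to 7485 of all genes, against 7079 as reported. In control livers 1 member differed with no filter, with quantile scaling, at the 75th percentile and without each array (1 to 1), and 5 with slide as a random block. All genes that differed in controls numbered 341, 451, 48, 53 to 472 and 2467 in that order, against 542 as reported. In treated livers 5 differed with that block (7492 of all genes, against 5305 as reported). Arntl2 at 3 h was -0.027 with median centring, a reversal. The cause of these changes was not tested.

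With the mouse number as a replicate block, without 8 h, 2 members (3 h), 5 (24 h), 6 (48 h) and 0 (72 h) were called. All genes called with it numbered 1466, 4884, 8293 and 9 in that order. The ratio of 6 members (7145 of all genes) and the treated level of 2 (5084 of all genes) differed over time. Without 48 h the control level of 2 members did (670 of all genes). Dbp at 3 h lost its call (adjusted p = 0.0509). Deviations of same-numbered samples correlated at -0.07 to 0.32 for ratios, 0.21 to 0.65 in controls and 0.12 to 0.54 in treated livers, and the numbers largely share their split with scan day.

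The number of arrays limits every value, and dim Cry1 and Npas2 signals lie near background.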
